A study of Mus musculus with 23 samples.

Results

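Peptide-converted T cells were set against regulatory T (Treg) cells resident in lymph nodes. The comparison rests on 5 of the 23 arrays of the series: 3 arrays of CD25+ cells recovered after treatment with the DEC-HA peptide (DEC CD25+, called converted cells here) and 2 arrays of lymph node Treg cells without CD103 and Klrg1 (LN CD103-Klrg1-, called resident cells). The arrays were chosen by their labels, not by measured values. A further 4 arrays of CD25- cells from the same kind of recipients (DEC CD25-) were used to mark differences that both DEC fractions share.

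The DEC groups started as CD4+CD25- T cells of HA6.5/Thy1.2/RAG-/-/Balb/c donors, which carry a T cell receptor transgene and cannot rearrange receptors of their own. They were moved into Balb/c mice that received 1 injection of DEC-HA peptide at 50 ng per mouse, and 3 weeks later CD25+ and CD25- cells were sorted from pooled spleen and lymph nodes of 5 to 10 mice per array. The resident groups came from untreated C57BL/6-Foxp3/GFP mice, as GFP+ cells of peripheral lymph nodes from 4 to 6 mice per array. A second resident subset, CD103+Klrg1- (LN CD103+Klrg1-, 2 arrays), served as an alternative reference. All mice were 6 to 10 weeks old and labelled male, and every sort kept CD3+CD4+ cells and removed cells with B220, CD8a, CD11b or CD11c. RNA was amplified in 2 rounds and read on Affymetrix M430v2 arrays. The labels do not say that arrays of a group came from separate pools, so p-values measure the spread between these arrays, which may in part be technical.

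Treg cells are CD4+ T cells that hold immune responses in check, and Foxp3 is their defining transcription factor. Most arise in the thymus, but a conventional CD4+ T cell can also gain Foxp3 in the periphery, and a small amount of antigen delivered to dendritic cells without inflammation is one way to bring this about. DEC-205 is an uptake receptor of dendritic cells, and an antigen coupled to an antibody against it reaches them directly. The comparison asks how far cells converted in this way resemble resident Treg cells.

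Several features divide the systems as a whole: strain, host, receptor transgene, tissue (spleen with lymph nodes, or lymph nodes alone) and sort gate. Their parts in any difference between DEC and resident arrays cannot be told apart, and neither can a change in RNA from a probe set that reads the sequence of one strain less well. The gates also fix part of the outcome. Converted cells were gated on CD25 and resident cells on Foxp3-GFP, CD103 and Klrg1, so Il2ra (CD25), Foxp3, Itgae (CD103) and Klrg1 are not free readouts. In bulk samples, fewer cells that carry a transcript and less of it per cell cannot be told apart.

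The DEC arrays went against their label as male. Xist, the RNA that coats the inactive X chromosome of female cells, read 13.25, 12.62 and 13.06 (log2 intensity) on the converted arrays and 13.16, 12.43, 12.25 and 11.85 on the CD25- arrays. The resident arrays read 6.74 and 6.92. The Y-linked gene Eif2s3y was near the floor on both DEC arrays of replicate 1 (2.96 and 2.89) and between 7.64 and 9.21 on the other DEC arrays, below the resident values of 11.16 and 11.34. So replicate 1 of both DEC fractions stood apart from the other DEC arrays in Eif2s3y, and all 7 held Xist. Kdm5d, also Y-linked, was lowest on DEC CD25- replicate 1 (3.59, others 6.03 to 6.36). The Y-linked Uty was not lowest on replicate 1 of either DEC fraction. It read 7.30, 7.37 and 7.28 on the converted arrays, and 6.73, 7.47, 6.58 and 4.78 on the CD25- arrays. All of these lay below the resident values of 8.17 and 8.48. The main counts are therefore also given without both DEC replicate 1 arrays. DEC CD25- replicates 3 and 4 were dim, with median intensities of 68.5 and 63.7 against 76.1 to 81.1 on the other arrays of these 3 groups. For Gapdh, the signal of the 3' over the 5' probe set was 6.59 (log2) in DEC CD25- replicate 3, against 2.37 to 3.92 on the other arrays of these groups. For Actb it was 3.39 on DEC CD25+ replicate 3, against 2.02 and 2.04 on the other converted arrays and 2.21 and 1.60 on the resident arrays. The CD25- arrays stood at 1.81, 3.03, 4.04 and 3.63 for Actb. Cd3e and Cd4, which define the sorted lineage, were well above the filter on every array of these groups and were not called between converted and resident cells (-0.53 ± 0.32 and -0.55 ± 0.51, log2 fold change ± standard error, with limma adjusted p = 0.311 and 0.557).

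Foxp3, the gene that defines Treg cells, was not called different between converted and resident cells. It read 10.38, 10.55 and 10.46 on the converted arrays and 10.62 and 10.08 on the resident arrays. The converted values lay inside the resident range, and their spread was narrow (10.47 ± 0.0852 SD, n = 3, against 10.35 ± 0.385, n = 2). The log2 fold change was 0.11 ± 0.33 (limma adjusted p = 0.875), and without LN CD103-Klrg1- replicate 2 it was -0.16. CD25- cells read 6.92, 8.48, 8.27 and 8.23, all below the converted arrays but above the filter used for testing (6.27, the median of all values). Foxp3 was 2.49 ± 0.28 higher in converted than in CD25- cells (adjusted p = 0.000177).

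The 4 genes taken as markers of this comparison did not move together. Gpr83, an orphan receptor enriched in Treg cells, read 9.68, 10.31 and 10.06 on the converted arrays and 12.37 and 11.85 on the resident arrays, while CD25- arrays ran from 7.15 to 7.96. The converted arrays thus lay between the other groups, with no overlap on either side. Gpr83 was 4.27-fold lower in converted than in resident cells (-2.09 ± 0.32, adjusted p = 0.000232) and 2.46 ± 0.27 higher than in CD25- cells (adjusted p = 0.000163). Itgb8, the integrin chain with which Treg cells activate TGF-beta, was also intermediate. It read 7.59, 6.89 and 8.0 on the converted arrays, 10.07 and 9.86 on the resident arrays, and 4.43 to 6.05 on the CD25- arrays. Itgb8 was 5.56-fold lower than in resident cells (-2.47 ± 0.44, adjusted p = 0.000911). Against CD25- cells it was 2.26 ± 0.37 higher (adjusted p = 0.0065), a call that was lost without DEC CD25+ replicate 3 (2.00, adjusted p = 0.068).

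Ikzf2, which encodes the transcription factor Helios, was abundant in every group and differed less. It read 11.88, 12.01 and 11.92 on the converted arrays, 12.54 and 12.68 on the resident arrays, and 10.85 to 11.19 on the CD25- arrays. The 3 groups did not overlap, with a difference of -0.67 ± 0.17 to resident cells (adjusted p = 0.0104) that was not called without LN CD103-Klrg1- replicate 2 (-0.60, adjusted p = 0.12), with cyclic loess normalization (-0.55, adjusted p = 0.051) or with probe sets averaged (-0.46, adjusted p = 0.28). Its relative Ikzf4, which encodes Eos, a partner of Foxp3, read 10.28, 10.57 and 10.39 in converted and 11.44 and 11.98 in resident cells. The difference of -1.30 ± 0.38 (adjusted p = 0.0255) did not pass when any of 4 arrays was left out: DEC CD25+ replicate 1 (-1.23) or 3 (-1.29), or LN CD103-Klrg1- replicate 1 (-1.57) or 2 (-1.03).

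Itgae, the CD103 chain that binds E-cadherin on epithelium, was the one of the 4 that lay higher in converted cells. It read 8.57, 10.74 and 10.42 there, 8.41 and 7.77 on the resident arrays gated as CD103-, and 5.99 to 7.94 on the CD25- arrays. DEC CD25+ replicate 1 was close to the resident arrays and the other converted arrays were well above them. The rise of 1.82 ± 0.56 (3.53-fold, adjusted p = 0.0342) is set against cells sorted to lack CD103 and was lost without DEC CD25+ replicate 2 (1.41) or 3 (1.57) or without LN CD103-Klrg1- replicate 1 (2.14) or 2 (1.5). Against the CD103+Klrg1- resident cells, at 12.59 and 13.02, Itgae was lower (-2.89 ± 0.56, adjusted p = 0.00144). Klrg1, an inhibitory receptor of differentiated lymphocytes, had the same form: 8.38, 8.85 and 9.27 in converted and 7.53 and 7.69 in resident cells gated without it. Its rise of 1.22 ± 0.37 (adjusted p = 0.0342) was lost without DEC CD25+ replicate 2 (1.22) or 3 (1.00) or without LN CD103-Klrg1- replicate 1 (1.15) or 2 (1.30). It differed by -0.07 ± 0.37 from the CD103+Klrg1- cells (adjusted p = 0.927).

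Il2ra, the gate gene of the converted cells, read 9.73, 10.49 and 10.26, below both resident arrays at 11.39 and 11.06. The groups did not overlap, yet the difference of -1.06 ± 0.35 fell just short of the threshold (adjusted p = 0.0506). With the replicate number of the DEC arrays as a block it was called (-1.06, adjusted p = 0.0109). CD25- arrays read 5.94 to 7.15, so the gate had separated the DEC fractions by 3.77 ± 0.29 (adjusted p = 1.58e-06).

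**Figure D1:**
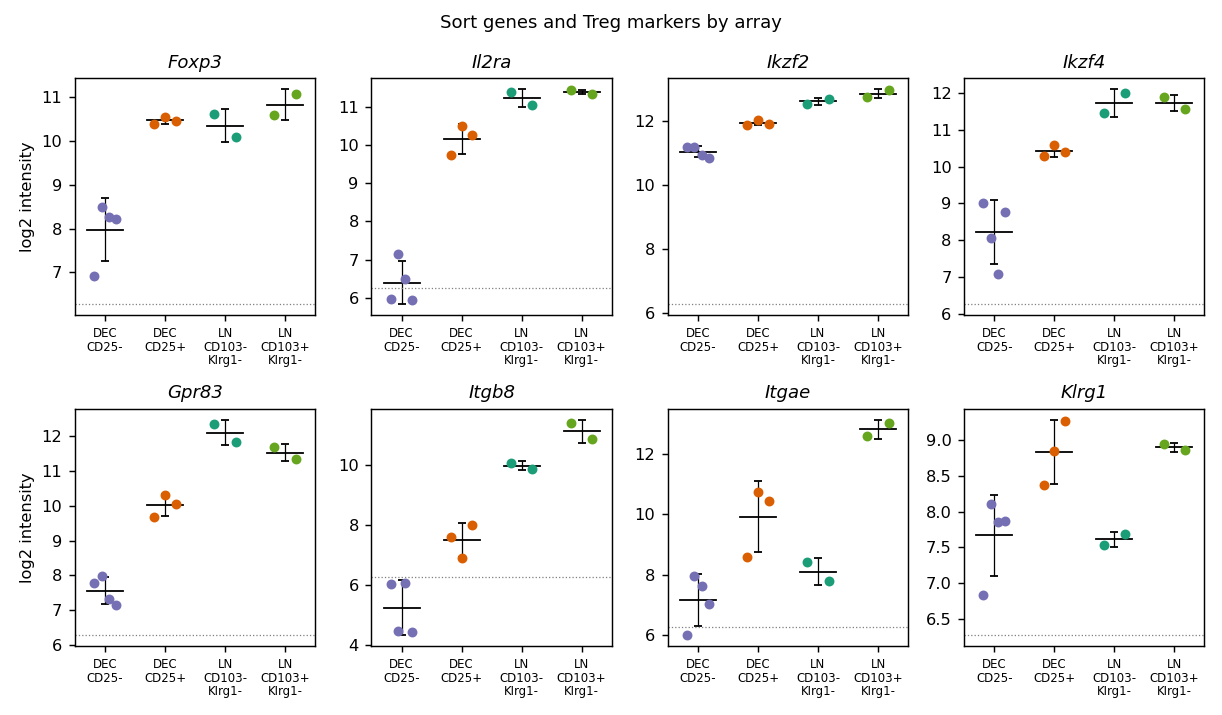
Log2 intensity (vertical axis) of the sort genes and Treg markers on each array of DEC CD25-, DEC CD25+ and the LN CD103-Klrg1- and CD103+Klrg1- subsets. Points are arrays, horizontal bars are group means, error bars are standard deviations and the dotted line is the filter at 6.27. Foxp3 of converted cells lies level with resident cells, Gpr83 and Itgb8 lie between CD25- and resident cells, and Itgae of converted cells lies between the CD103- and CD103+ resident subsets.

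Across all genes, converted and resident cells differed widely. Group means of all 9 groups of the series were estimated together from log2 intensities with limma, and a gene is called when its Benjamini-Hochberg adjusted p lies under 0.05. Of 12516 genes tested, 1832 were called (14.6%), 583 higher (4.66%) and 1249 lower (9.98%) in converted cells, and 1370 of them differed by at least 2-fold. In all 1832 the converted and resident arrays did not overlap, a weak criterion with 3 against 2 arrays, which 46.5% of all tested genes met. The median of all tested genes was 0.0130. The count was 984 and 809 without LN CD103-Klrg1- replicate 1 and 2, which leaves a lone resident array that is assumed to vary like the other groups. It was 2869 with the replicate number of the DEC arrays as a block, an alternative added after the data were seen, and 2013 without both DEC replicate 1 arrays. The size of a difference depended on the probe sets used. Of 142 called genes that are named here or belong to a gene list, 45 moved by more than 1.5 times in fold when the probe sets of a gene were averaged instead of taking the brightest, 44 of them toward no difference, and 12 of the 45 were no longer called.

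Most of these differences were shared with the CD25- fraction. Against the same resident arrays, CD25- cells differed in 2831 genes (22.6%), 494 higher (3.95%) and 2337 lower (18.7%). Of the 1832 genes called in converted cells, 1531 (83.6%) were also called in the same direction in CD25- cells, 350 higher and 1181 lower. They make up 12.2% of the genes tested and are called shared differences here. Their share of the called genes ran from 55.4% with array weights to 91.2% without DEC CD25+ replicate 2. It was 66.3% without the dim DEC CD25- arrays. Both comparisons use the same resident arrays, so what is particular to those arrays enters both. Genes that CD25- cells hold at still lower levels than converted cells, such as Gpr83 and Itgb8, count among the shared differences too. The share of lower calls in CD25- cells was 82.6% as deposited, 60.8% after quantile and 62.6% after cyclic loess normalization, and the median of all genes was -0.14, 0.07 and 0.03 in turn.

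The other called genes fell into a set of 149 whose log2 fold change in CD25- cells was under 50% of that in converted cells or of opposite sign, 124 higher and 25 lower, and a set of 152 with a larger share. This excess of rises depended on the CD25- arrays and on scaling. The split was 96 higher and 81 lower after quantile and 102 and 72 after cyclic loess normalization, and it turned to 105 higher and 157 lower without the dim DEC CD25- arrays. Without LN CD103-Klrg1- replicate 1 or 2 the set held 29 and 5 or 28 and 5. The test of the difference between the fractions is that of converted against CD25- cells, which called 62 of all genes (0.495%), 50 higher and 12 lower. This comparison shares the converted arrays with the first. With the replicate number of the DEC arrays as a block it called 110, 78 higher and 32 lower, and without both DEC replicate 1 arrays 465. It called 19 and 24 without DEC CD25+ replicate 2 and 3, 222 without replicate 1, 330 and 115 without DEC CD25- replicate 1 and 2, and 7 in the fit to the 9 arrays of these groups. The excess of rises was not kept either: 44 higher and 39 lower after quantile, 38 and 34 after cyclic loess normalization, and 22 and 31 without the dim DEC CD25- arrays. In the set of 149 it called 13 genes, all named below, and 140 had an unadjusted p under 0.05. In the set of 152 it called 0 by limma, with 23 at an unadjusted p under 0.05. The set of 149 was chosen for values unlike those of CD25- cells, which by itself favours a small p here. So for genes not called, a difference between the fractions is not shown.

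**Figure D2:**
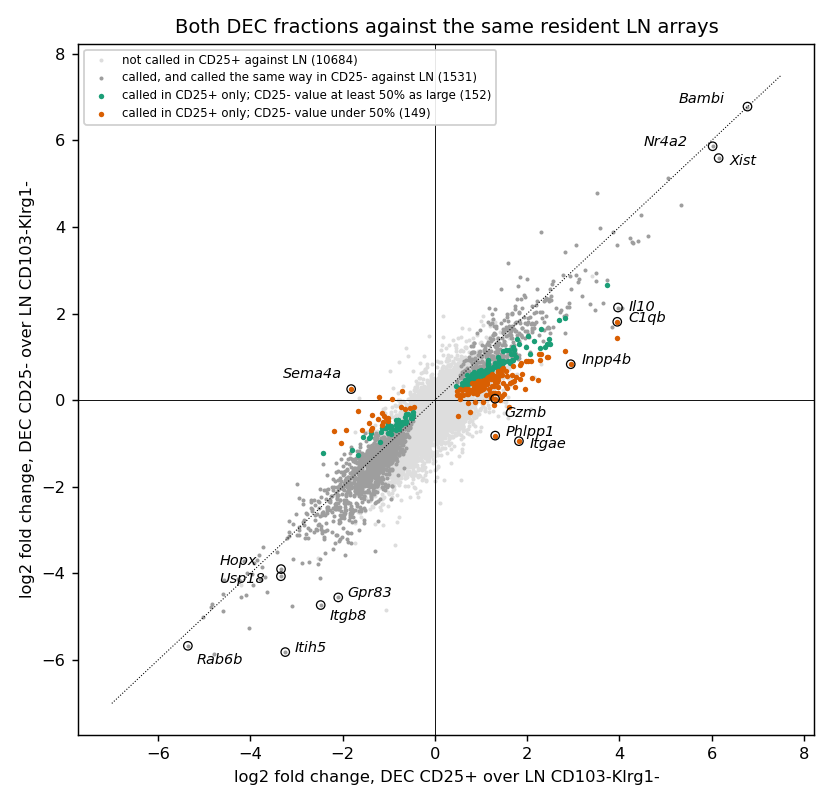
Log2 fold change of DEC CD25+ (horizontal axis) and DEC CD25- (vertical axis) arrays over the same LN CD103-Klrg1- arrays, 1 point per tested gene; the dotted line marks equal values. Grey points, 1531 genes, are called the same way in both fractions and follow the line at both ends, from Rab6b to Bambi. Gpr83, Itgb8 and Itih5 lie below the line on the left, and Phlpp1, Sema4a, Itgae and Gzmb lie away from it near the middle.

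Phlpp1 set converted cells apart from both other groups. It encodes a phosphatase that removes an activating phosphate from the kinase Akt. Converted arrays read 9.15, 9.67 and 9.60, resident arrays 8.10 and 8.23, and CD25- arrays 7.11 to 7.57. No groups overlapped, and the resident cells lay in the middle. Phlpp1 was 2.47-fold higher in converted than in resident cells (1.31 ± 0.17, adjusted p = 5.94e-05) and was lower in CD25- than in resident cells (-0.82 ± 0.16, adjusted p = 0.0014). It was the 1 gene called in opposite directions in the DEC fractions, with 2.12 ± 0.14 between them (adjusted p = 3.24e-07), and its calls held under all 20 alternatives run on these groups. Inpp4b, a lipid phosphatase that also limits Akt signalling, read 10.85, 10.30 and 10.38 in converted and 7.87 and 7.26 in resident cells. CD25- replicate 1, at 9.97, came near the converted arrays while the other CD25- arrays read 7.45 to 8.55. Inpp4b rose 7.70-fold over resident cells (2.94 ± 0.51, adjusted p = 0.000743), but by 1.20 when its probe sets were averaged (adjusted p = 0.038). Its rise over CD25- cells (2.11 ± 0.43, adjusted p = 0.0329) was lost when DEC CD25+ replicate 1, 2 or 3 (1.94, 2.22 and 2.18) or DEC CD25- replicate 3 or 4 (1.85 and 1.80) was left out.

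Gzmb, a granzyme that Treg cells can use to kill target cells, read 7.0, 7.90 and 8.15 in converted cells. Resident arrays, at 6.45 and 6.31, and CD25- arrays, at 6.33 to 6.5, lay just above the filter. The rise of 1.30 ± 0.29 over resident cells (adjusted p = 0.0043; 1.23 with adjusted p = 0.059 without LN CD103-Klrg1- replicate 2) had no counterpart in CD25- cells (0.03 ± 0.27, adjusted p = 0.953). The difference between the fractions was 1.27 ± 0.24 (adjusted p = 0.0203) and was lost without DEC CD25+ replicate 2 (1.16) or 3 (1.04). CD103+Klrg1- resident cells, at 8.75 and 9.21, held more Gzmb than converted cells, whose difference was -1.29 ± 0.29 (adjusted p = 0.00408).

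Il10, the anti-inflammatory cytokine, was the strongest rise among the suppressor genes. Converted arrays read 10.998, 10.994 and 10.47, CD25- arrays 9.76, 9.31, 8.19 and 8.73, and resident arrays 7.51 and 6.2. The levels fell in that order with no overlap. Il10 was 15.6-fold higher than in resident cells (3.97 ± 0.46, adjusted p = 1.56e-05), under all 20 alternatives, and 2.14 ± 0.43 higher in CD25- than in resident cells (adjusted p = 0.00155). The step between the DEC fractions (1.83 ± 0.38, adjusted p = 0.0389) did not pass without DEC CD25+ replicate 1, 2 or 3 (1.74, 1.74 and 2.00) or DEC CD25- replicate 3 or 4 (1.56 and 1.74). Converted cells also exceeded the CD103+Klrg1- cells, at 9.19 and 8.50, by 1.97 ± 0.46 (adjusted p = 0.00557). Of 14 suppressor mediators tested, Il10 and Gzmb rose and 0 fell (4 rose without both DEC replicate 1 arrays). The called share was 14.3%, against 14.6% of all tested genes. The inhibitory receptor Ctla4 (1.08 ± 0.67, adjusted p = 0.335), Tgfb1 (0.47 ± 0.16, adjusted p = 0.0535) and the ectoenzymes Entpd1 (-0.42 ± 0.31) and Nt5e (0.06 ± 0.36) were not called. The median log2 fold change of the 14 mediators was 0.0899.

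Il7r, the receptor chain for the survival cytokine IL-7 and commonly low on Treg cells, read 11.46, 10.98 and 11.02 in converted cells. Resident arrays read 11.97 and 12.21 and CD25- arrays 11.71 to 12.40, so converted cells lay below both. The fall against resident cells (-0.93 ± 0.21, adjusted p = 0.00463) was lost without LN CD103-Klrg1- replicate 2 (-0.81, adjusted p = 0.083). Against CD25- cells it was -0.97 ± 0.17 (adjusted p = 0.0128), lost without DEC CD25+ replicate 2 (-0.88) or 3 (-0.91). Sema4a, a semaphorin that acts on other immune cells, read 6.98, 6.67 and 7.28 in converted cells, below resident arrays (8.63 and 8.95) and CD25- arrays (8.92 to 9.11). It fell 3.52-fold (-1.81 ± 0.38, adjusted p = 0.00308; -1.65 with adjusted p = 0.055 without LN CD103-Klrg1- replicate 2; -1.09 with the mean of probe sets) and by as much against CD25- cells (-2.07 ± 0.32, adjusted p = 0.00367).

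Among the remaining genes of this kind, Glt28d2 (at least 3.05-fold higher, since the lower group lies below the filter and background may hold its value up) and Fam78a (2.55-fold lower) kept their calls against resident cells under each alternative run on these groups that tested them. Glt28d2, a predicted glycosyltransferase, read 7.84, 7.74 and 7.34 in converted cells against 6.29 and 5.78 in resident and 5.55 to 6.21 in CD25- cells. Fam78a read 7.51, 8.10 and 8.26 against 9.50 and 9.12 in resident cells and 8.73 to 9.14 in CD25- cells; its call against CD25- cells was lost without DEC CD25+ replicate 1 (-0.79) or 2 (-1.08) or DEC CD25- replicate 4 (-0.95). The lipid kinase gene Pi4k2b (1.49 ± 0.34), the sorting nexin Snx18 (0.75 ± 0.25) and the corepressor Tle1 (0.50 ± 0.14) were higher than in both groups. Ldlrad4, an inhibitor of TGF-beta signalling (-1.22 ± 0.33), and the centriole gene Spice1 (-0.71 ± 0.22) were lower than in both. Against CD25- cells Tle1 kept its call under 18 of 19 alternatives that tested it, but Pi4k2b under 8 of 20, Snx18 under 11 of 20, Ldlrad4 under 12 of 19 and Spice1 under 13 of 20. The calls of these 5 genes against resident cells were lost under 2 to 8 of the alternatives run. Without LN CD103-Klrg1- replicate 1 the values were 1.40, 0.68, 0.48, -0.88 and -0.63 in this order, with adjusted p from 0.0659 to 0.25, and for Tle1 and Ldlrad4 the mean of probe sets gave 0.17 and -0.06.

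**Figure D3:**
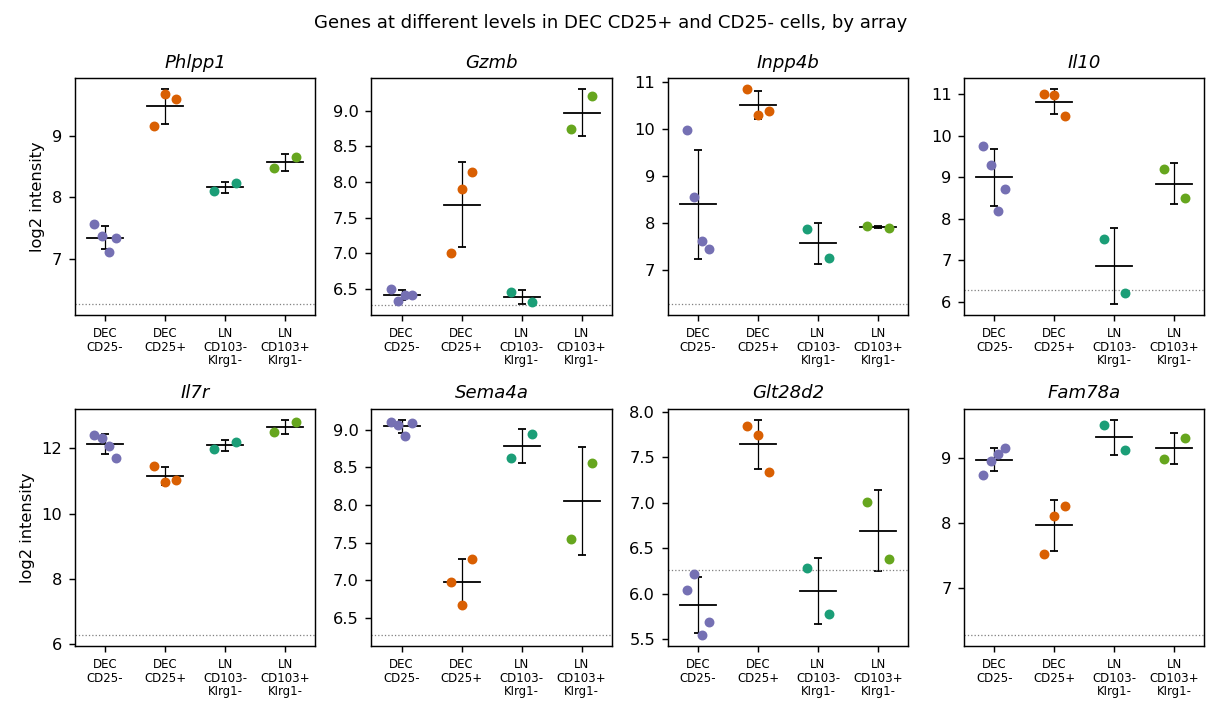
Log2 intensity (vertical axis) of 8 genes at different levels in DEC CD25+ and CD25- cells, by array, with group means, standard deviations and the filter at 6.27 as a dotted line. Phlpp1, Inpp4b, Il10 and Glt28d2 are highest in converted cells, Il7r, Sema4a and Fam78a are lowest in them, and Gzmb of converted cells lies between the resident subsets.

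The largest differences to resident cells among genes of the set of 149 not called between the fractions were of another kind. Gadd45b, a stress-induced gene, read 11.03, 12.34 and 11.55 against 7.93 and 7.47 in resident cells (3.94 ± 0.79, adjusted p = 0.0023). CD25- cells read 6.60 to 10.33, with replicate 3 lowest. Rrad, a small GTPase, rose as well (2.83 ± 0.55, adjusted p = 0.00169), and both held under all 20 alternatives. Mau2, a cohesin loader subunit (2.45 ± 0.53; 0.74 with the mean of probe sets), Gprin3 (2.42 ± 0.76), the aminotransferase Got1 (2.28 ± 0.73), the immediate early gene Ier2 (2.27 ± 0.64) and the chemokine Cxcl10 (2.24 ± 0.65) were also higher. The last 4 were lost without LN CD103-Klrg1- replicate 1 (2.94, 2.25, 2.58 and 2.21) or 2 (1.91, 2.31, 1.96 and 2.26) and without DEC CD25+ replicate 2 (2.37, 1.99, 1.96 and 1.93). Gprin3 was lost in addition without DEC CD25+ replicate 1 (2.42) or 3 (2.48), Got1 without replicate 1 (2.18) and Ier2 without replicate 3 (2.31).

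On the lower side were the histone gene H2bc21 (-2.18 ± 0.51), the ubiquitin ligase Rnf157 (-2.04 ± 0.53), the phosphodiesterase Pde3b (-1.66 ± 0.48), the actin-severing Gsn (-1.57 ± 0.49), Slfn2, which keeps T cells quiescent (-1.42 ± 0.40), Klhdc2 (-1.39 ± 0.42), the kinase Dyrk2 (-1.36 ± 0.30) and Dennd4c (-1.24 ± 0.34). Each of these calls was lost when 1 resident array was left out. Without LN CD103-Klrg1- replicate 1 this held for H2bc21 (-1.90), Rnf157 (-2.02), Pde3b (-1.92), Gsn (-2.04), Slfn2 (-0.99), Klhdc2 (-1.31) and Dennd4c (-1.37), and without replicate 2 for Rnf157 (-2.06), Pde3b (-1.41), Gsn (-1.10), Klhdc2 (-1.47), Dyrk2 (-1.15) and Dennd4c (-1.11). Converted arrays mattered too: Rnf157 (-1.47), Pde3b (-1.51), Gsn (-1.27) and Klhdc2 (-1.11) were lost without DEC CD25+ replicate 2, Pde3b (-1.61), Gsn (-1.60) and Klhdc2 (-1.41) without replicate 1, and Slfn2 (-1.23) and Dennd4c (-1.10) without replicate 3. The mean of the probe sets gave 0.09 for Rnf157 and -0.43 for Dyrk2, neither of them called.

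A group of genes was graded from resident through converted to CD25- cells, as Gpr83 and Itgb8 were. Of the 1531 shared differences, 16 also separated the DEC fractions. Il10 was the 1 shared rise among them, and the other 15 were lower than in resident and higher than in CD25- cells. Itih5, which encodes a secreted matrix-binding protein, read 6.81, 7.77 and 8.33 in converted, 10.96 and 10.80 in resident and 4.39 to 5.56 in CD25- cells. It was 9.46-fold lower than in resident cells (-3.24 ± 0.39, adjusted p = 2.28e-05) and 2.57 ± 0.32 higher than in CD25- cells (adjusted p = 0.000559). Gpr34, a lysophospholipid receptor, was at least 8.54-fold lower than in resident cells (-3.09 ± 0.33, adjusted p = 6.29e-06). The vesicle transport gene Sytl2 (-1.94 ± 0.34) and the endoplasmic reticulum protein Rcn1 (-1.88 ± 0.25) were lower too, and like Itih5 and Gpr34 kept the call against resident cells under all 20 alternatives, though the mean of probe sets gave -0.89 for Rcn1 and -2.42 for Itih5. Gpr83, Itgb8, Ikzf2, Ikzf4, Slc14a1, Igf2r, Cdk6, Eif4e3, Tent5a, Fcmr and Enpp4 were the others. The genes singled out here and below from outside the naming rule were chosen after their values were seen.

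Treg transcription factors as a list held no common direction. Of 25 tested, 4 were called higher and 3 lower, with a median of -0.12 against 0.0130 for all genes. The called share was 28%, against 14.6% of all tested genes. All called members but Xbp1 were shared differences, and in CD25- cells 3 were called higher and 9 lower. Id2, an inhibitor of E proteins (2.56 ± 0.35, adjusted p = 8.38e-05), and Rora, a nuclear receptor (2.19 ± 0.32, adjusted p = 0.000186), rose under all 20 alternatives (by 1.27 and 1.49 with the mean of probe sets). Xbp1 (0.81 ± 0.24) and Runx3 (0.98 ± 0.32) were called higher too. Cbfb, the partner of Runx factors, fell with Ikzf2 and Ikzf4 (-1.53 ± 0.37, adjusted p = 0.00865). The effector Treg factors Prdm1 (-0.13 ± 0.37), Irf4 (0.82 ± 0.63) and Batf (0.70 ± 0.39) were not called. Prdm1 read 8.36, 8.99 and 8.39 in converted and 8.78 and 8.65 in resident cells, and was lower than in the CD103+Klrg1- cells (-2.25 ± 0.37, adjusted p = 0.000445). The calls of Cbfb and Xbp1 were lost without LN CD103-Klrg1- replicate 2 (-1.36 and 0.53), and that of Xbp1 also without DEC CD25+ replicate 2 (0.70) or 3 (0.87). Runx3 kept its call under 11 of 20 alternatives and lost it without either resident array (0.82 and 1.14), DEC CD25+ replicate 1 (1.04) or 3 (0.79), or both DEC replicate 1 arrays (1.04). Without LN CD103-Klrg1- replicate 2 the list held 2 higher and 0 lower calls.

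Surface receptors of Treg cells showed no common direction. Of 21 tested, Itgae and Klrg1 were called higher, Gpr83 and Cd200 lower, 8 had an unadjusted p under 0.05, and the median was 0.0453. The called share was 19.0%, near the 14.6% of all tested genes. The 2 higher calls became 0 without DEC CD25+ replicate 2 or either resident array. Cd200, a ligand that quiets myeloid cells, read 8.28, 7.75 and 8.29 in converted, 11.15 and 10.94 in resident and 7.64 to 9.80 in CD25- cells. It was 7.67-fold lower than in resident cells (-2.94 ± 0.47, adjusted p = 0.000388), and was lower in CD25- cells as well (-2.25 ± 0.45). The TNF receptors Tnfrsf18 (GITR; -0.20 ± 0.37) and Tnfrsf4 (OX40; 0.10 ± 0.27), the costimulator Icos (0.05 ± 0.28) and the thymic Treg marker Nrp1 (-0.89 ± 0.37, adjusted p = 0.119) were not called. Tnfrsf18 was 1.66 ± 0.35 higher than in CD25- cells (adjusted p = 0.0187), which was lost without DEC CD25+ replicate 2 (1.36) or 3 (1.75).

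Genes of the IL-2 pathway did not move one way. Of 16 genes tested 1 rose and 4 fell, Il7r among them, with a median of 0.0986. All called members but Il7r were shared differences. The called share was 31.25% here and 12.5% in the TGF-beta list below, against 14.6% of all tested genes. Il2rb, the signalling chain shared by the IL-2 and IL-15 receptors, read 7.91, 8.33 and 7.94 in converted and 10.23 and 10.09 in resident cells. It was 4.29-fold lower (-2.10 ± 0.41, adjusted p = 0.00183), with -1.51 from the mean of probe sets, and CD25- cells, at 6.65 to 8.91, overlapped with the converted arrays. The survival gene Bcl2 (-1.53 ± 0.46, adjusted p = 0.0316) and the cytokine inhibitor Socs1 (-0.72 ± 0.20, adjusted p = 0.021) fell, and Socs3, another such inhibitor, rose (1.57 ± 0.38, adjusted p = 0.00921). The STAT5 targets Cish (0.39 ± 0.24) and Socs2 (-0.19 ± 0.42) were not called. The Bcl2 call was lost when any converted or resident array was left out (-1.74 to -1.32), that of Socs1 without DEC CD25+ replicate 3 (-0.70) or LN CD103-Klrg1- replicate 2 (-0.54), and that of Socs3 without either resident array (1.58 and 1.55). In the TGF-beta list of 16, Tgfbr1, the type I receptor, fell with Itgb8 (-1.51 ± 0.35, adjusted p = 0.00685; -1.43 with adjusted p = 0.075 without LN CD103-Klrg1- replicate 2, and -0.50 with adjusted p = 0.065 with the mean of probe sets), and the list median was 0.16.

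Of 38 genes linked to effector Treg cells and to CD103, 10 were called higher (26.3%) and 0 lower in converted cells. The list median was 0.72. Of all tested genes 4.66% were called higher. Resident cells here were gated to lack CD103 and Klrg1, so Itgae and Klrg1 were not free readouts. The list as a whole was set against CD103- cells. Beside Il10, Id2, Rora, Gzmb, Itgae and Klrg1, the called members were Anxa1, an anti-inflammatory annexin (1.25 ± 0.30), and S100a4 (1.81 ± 0.45). Also among them were the chemokine receptor Cxcr3 (1.23 ± 0.37) and the integrin chain Itgb1 (1.54 ± 0.47). Of the 10, 7 were shared differences. CD25- cells had 8 members called higher and 5 lower, with a median of 0.0998. The count in converted cells was 6 higher and 1 lower without DEC CD25+ replicate 2, 4 higher without LN CD103-Klrg1- replicate 1 or replicate 2, and 14 higher without both DEC replicate 1 arrays. Anxa1 was lost without LN CD103-Klrg1- replicate 1 (1.15), S100a4 without either resident array (1.83 and 1.79), Itgb1 without either of these (1.66 and 1.42) or DEC CD25+ replicate 1 (1.47) or 2 (1.34), and Cxcr3 without either resident array (1.52 and 0.93), without DEC CD25+ replicate 1 (1.26) or 2 (1.04) and without both DEC replicate 1 arrays (1.26). Against the CD103+Klrg1- cells Itgae and Gzmb were lower and Il10 was higher, as given above. Cxcr3 differed from those cells by -0.49 ± 0.37 (adjusted p = 0.398).

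Of 9 Th1 genes tested, 4 were called higher and 0 lower in converted cells, and 5 and 0 in CD25- cells. Among all tested genes 4.66% and 3.95% were called higher in these comparisons. The 4 became 2 without DEC CD25+ replicate 1 or 2, either resident array or both DEC replicate 1 arrays, and 3 without DEC CD25+ replicate 3. Ifng, the Th1 cytokine, read 10.63, 11.38 and 10.80 in converted, 11.10 to 12.17 in CD25- and 8.27 and 7.95 in resident cells. The rise over resident cells was 7.09-fold (2.83 ± 0.38, adjusted p = 6.83e-05), and the DEC fractions overlapped. The IL-18 receptor chains Il18r1 (1.25 ± 0.25) and Il18rap (0.89 ± 0.27) and Cxcr3 were the others, of which Il18rap was lost when any of the 5 arrays compared was left out (0.81 to 0.97). Ifng and Il18r1 kept their calls under all 20 alternatives. Of 6 Th2 genes limma called 0, with 0 at an unadjusted p under 0.05, of 8 Th17 genes Rora alone, and of 11 follicular helper genes Cd200 alone. Of 27 cell cycle genes 0 were called by limma and 3 had an unadjusted p under 0.05, with a median of -0.18 that was 0.25 without LN CD103-Klrg1- replicate 1 and -0.67 without replicate 2. The proliferation marker Mki67 read 6.68, 9.12 and 8.62 in converted and 9.90 and 7.85 in resident cells, with DEC CD25+ replicate 1 lowest.

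Immediate early genes, which rise soon after a cell is stimulated or handled, had more members called higher than lower in both DEC fractions. In converted cells 11 of 21 were called higher and 1 lower, with a median of 1.64. In CD25- cells 8 and 1 were, with a median of 1.08. Among all tested genes 4.66% were called higher and 9.98% lower in converted cells, and 3.95% and 18.7% in CD25- cells. Tnfaip3, which restrains NF-kB, read 13.75, 13.61 and 13.36 in converted, 12.30 to 13.75 in CD25- and 10.29 and 9.89 in resident cells. The DEC fractions overlapped and both lay above the resident arrays (11.2-fold higher in converted cells, 3.48 ± 0.61, adjusted p = 0.000784). The transcription factor Atf3 (at least 11.3-fold) and Ier3 (at least 3.12-fold) held with it under all 20 alternatives, Tnfaip3 at 2.56 with the mean of probe sets. Fosb (4.40 ± 1.11), Junb (2.86 ± 0.67) and Ppp1r15a (2.73 ± 0.67) rose but were lost without LN CD103-Klrg1- replicate 1 (4.31, 2.79 and 2.77) or 2 (4.48, 2.93 and 2.70). Myc fell (-1.04 ± 0.26; lost without either resident array, at -0.95 and -1.13), and Egr1 (-0.10, adjusted p = 0.939) and Nfkbia (0.30, adjusted p = 0.606) were not called. The count was 3 higher and 0 lower without either resident array, 6 and 1 without DEC CD25+ replicate 2 or 3, and 7 and 1 without both DEC replicate 1 arrays. Outside the list, Nr4a2, an orphan nuclear receptor induced by receptor signals, read 11.62, 11.23 and 11.39 in converted, 9.65 to 12.27 in CD25- and 5.49 and 5.30 in resident cells. By its brightest probe set it was at least 64.8-fold higher (6.02 ± 0.76, adjusted p = 4.05e-05), and by the mean of its probe sets the difference was 3.31 (adjusted p = 7.8e-05). Klf4, a zinc finger factor (at least 40.3-fold), Fosl2 (22.1-fold), Bhlhe40 (19.7-fold) and Rgs2 (15.4-fold) were higher in converted cells, with CD25- log2 fold changes of 4.52, 4.28, 3.64 and 3.58. The mean of probe sets gave 3.49 for Klf4 and 2.39 for Fosl2. Ddit4, which restrains mTOR, was 15.6-fold lower. The part of cell handling in this pattern was not tested.

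Tolerance and anergy genes split. Of 28 tested, 5 were called higher and 4 lower, 8 of these 9 in both DEC fractions. The called share was 32.1%, against 14.6% of all tested genes. Hopx, a homeodomain protein needed by Treg cells induced through dendritic cells, read 7.97, 8.13 and 7.97 in converted, 7.24 to 7.81 in CD25- and 11.58 and 11.13 in resident cells. It was 10.1-fold lower than in resident cells (-3.33 ± 0.28, adjusted p = 5.4e-07), and the difference to CD25- cells of 0.57 ± 0.24 was not called (adjusted p = 0.286). Egr3 (-2.05 ± 0.57), Cd200 and the ubiquitin ligase Itch (-1.08 ± 0.28) were lower. Nr4a2, Nr4a3 (2.36 ± 0.48), the inflammatory caspase Casp4 (2.48 ± 0.25), the ligase Cblb (1.45 ± 0.46) and Tnfsf11 (1.44 ± 0.45) were higher. Hopx, Cd200, Nr4a2 and Casp4 kept their calls under all 20 alternatives. The other calls did not: without LN CD103-Klrg1- replicate 2 the list held 2 higher and 2 lower, with Nr4a3 (2.12), Cblb (1.77), Tnfsf11 (1.46), Egr3 (-2.24) and Itch (-0.86) lost, and without replicate 1 Cblb (1.14), Tnfsf11 (1.43) and Egr3 (-1.85) were lost. Cblb and Tnfsf11 were also lost without DEC CD25+ replicate 1 (1.38 and 1.28) or 2 (1.44 and 1.38) and without both DEC replicate 1 arrays (1.38 and 1.28), Cblb and Egr3 without DEC CD25+ replicate 3 (1.53 and -1.96). With the mean of probe sets the values were 0.86 for Cblb, 0.68 for Tnfsf11, -0.74 for Egr3 and -0.55 for Itch, none of them called, and 0.94 for Nr4a3, which was.

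Trafficking genes moved both ways. Of 23 homing genes 6 rose and 2 fell, and 6 of these 8 were shared differences. The called share was 34.8% here and 25% among the naive and central T cell genes below, against 14.6% of all tested genes. The rises numbered 2 without DEC CD25+ replicate 2, 4 without replicate 1 or 3, 2 and 1 without LN CD103-Klrg1- replicate 1 and 2, 4 without both DEC replicate 1 arrays and 2 in the fit to 9 arrays. Gpr183, which guides cells by oxysterols, rose under all 20 alternatives (2.38 ± 0.45, adjusted p = 0.00146; 1.78 with the mean of probe sets), and the lymph node homing receptor Ccr7 rose by 2.15 ± 0.53 (1.73 and not called without LN CD103-Klrg1- replicate 2). Cd69, which holds cells in tissue, rose by 1.53 ± 0.46, a call lost without DEC CD25+ replicate 2 (1.41) or 3 (1.59), without either resident array (1.85 and 1.22) or without both DEC replicate 1 arrays (1.61). The gut homing receptor Ccr9 fell (-1.86 ± 0.55), but not without DEC CD25+ replicate 1 or 2 (both -1.63) or either resident array (-2.11 and -1.61), and Gcnt1, an enzyme of selectin ligands, was at least 2.53-fold lower (not called without LN CD103-Klrg1- replicate 1, at -1.28). Of 20 naive and central T cell genes, Ccr7 and Rasgrp2, an activator of Rap1, rose (1.23 ± 0.28; 0.97 and not called without LN CD103-Klrg1- replicate 2), and Nsg2 (-4.13 ± 0.32), Igfbp4 (-2.34 ± 0.34) and Il7r fell.

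In the T cell receptor list of 28, the phosphatase Dusp5 (2.32 ± 0.45) and the kinase Zap70 (0.68 ± 0.22) rose beside Phlpp1 and Inpp4b, and 0 fell. The called share was 14.3% here and 25% among the survival genes below, against 14.6% of all tested genes. Dusp5 and Zap70 were shared differences. The Zap70 call was kept under 8 of 20 alternatives and was lost without either resident array (0.91 and 0.46), DEC CD25+ replicate 2 (0.70) or 3 (0.51), or DEC CD25- replicate 2 (0.68). Of 16 survival genes 3 rose and Bcl2 fell, and 1 and 0 did so without either resident array. Traf1, an adaptor of TNF receptors, rose under all 20 alternatives (2.46 ± 0.37; 1.45 with the mean of probe sets). Cflar, an inhibitor of caspase activation, rose by 1.17 ± 0.29, was lost without either resident array (1.21 and 1.14) and stood at -0.20 with the mean of probe sets. The death ligand Fasl, the third rise, was lost without DEC CD25+ replicate 1 (1.28) or 2 (1.57) or either resident array (1.88 and 1.29). All 4 called survival genes were shared differences.

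The list of interferon-induced genes had calls in 1 direction, lower, in both DEC fractions. This holds for the members chosen: Cxcl10, an interferon-induced chemokine outside the list, was called higher in converted cells, as given above. In converted cells 0 of 22 were called higher and 10 lower, with a median of -0.92. All 10 were also lower in CD25- cells, where 12 were called. Among all tested genes 9.98% were called lower in converted and 18.7% in CD25- cells. Usp18, a brake on the interferon receptor, read 6.67, 7.52 and 7.22 in converted, 5.77 to 6.86 in CD25- and 10.48 and 10.47 in resident cells. It was 10.1-fold lower than in resident cells (-3.34 ± 0.27, adjusted p = 2.42e-07). The antiviral genes Ifit3 (-2.94 ± 0.28), Ifit1 (-2.26 ± 0.30) and Oasl2 (at least 7.16-fold) and the chaperone Rtp4 (-1.44 ± 0.29) held under every alternative that tested them, and Ifit2, Irf9, Mx1, Ifi47 and Gbp2 were the others. The master regulator Irf7 (0.03, adjusted p = 0.972), Oas1a (0.13, adjusted p = 0.852) and Stat2 (-0.40, adjusted p = 0.433) were not called, so members of the list differed among themselves. Without LN CD103-Klrg1- replicate 1, and likewise without replicate 2, 6 were called, and without both DEC replicate 1 arrays 9.

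The binding site of the interferon factor complex, written here as GAAANNGAAA on either strand, was looked for in the 250 bases before gene starts of RefSeq (GRCm38.p6, from C57BL/6J). Of all 10114 tested genes with a start in RefSeq's set 3.24% held a match. Of 16 matched members of the interferon list 9 did: 3 of the 7 called lower and 6 of the 9 not called. A match is a description of these letters and does not show binding. The stretches with a match before the called genes are printed to show the element, with the match, which lies on the strand opposite to the gene's, in capitals as TTTCNNTTTC.
Ifit3, chr19:34583348-34583407, plus strand: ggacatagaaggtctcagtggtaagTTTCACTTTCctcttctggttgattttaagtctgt
Ifit1, chr19:34640760-34640819, plus strand: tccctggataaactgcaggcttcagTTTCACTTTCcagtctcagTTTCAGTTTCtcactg
Gbp2, chr3:142620579-142620638, plus strand: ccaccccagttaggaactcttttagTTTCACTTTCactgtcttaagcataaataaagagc
The first match lies 156, 104 and 59 bases before the start of Ifit3, Ifit1 and Gbp2. All 3 share TTTCACTTTC, and Ifit1 holds a second match, TTTCAGTTTC. Ifit3 has a second match in its 250 bases too, outside the stretch printed, and Gbp2 has 1 in all.

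**Figure D4:**
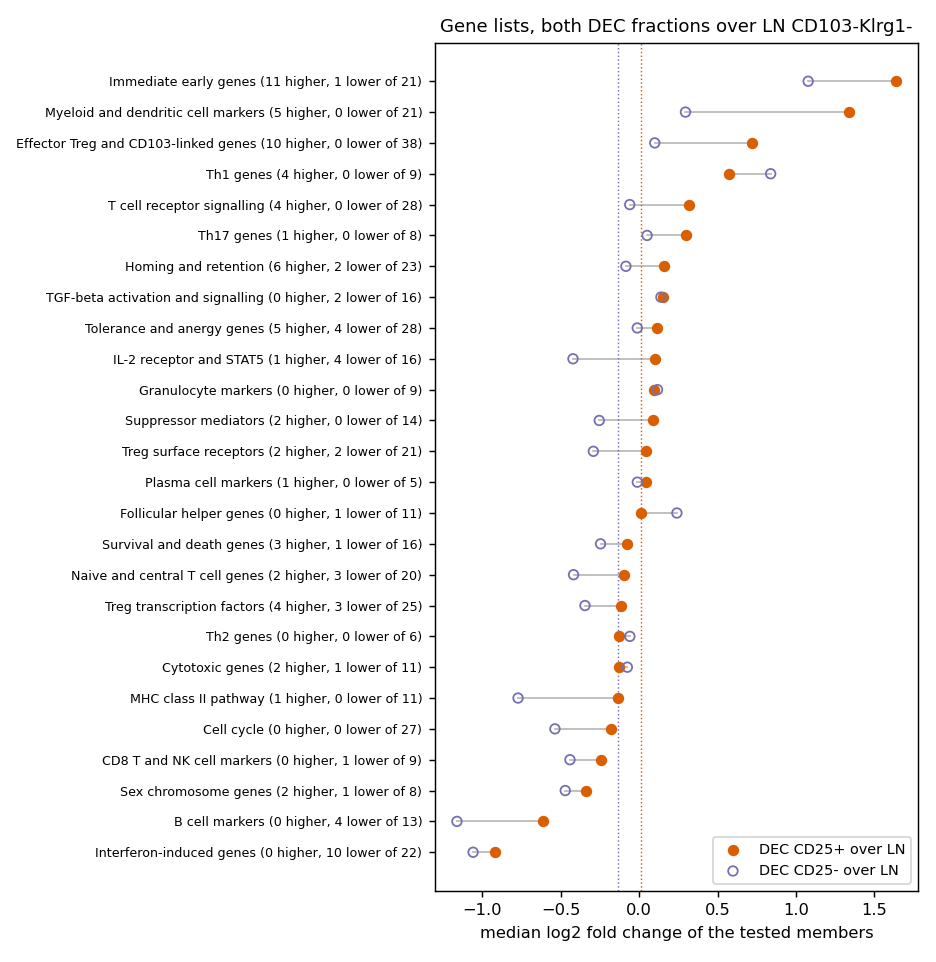
Median log2 fold change (horizontal axis) of the tested members of each gene list with at least 5 tested members, for DEC CD25+ (filled) and DEC CD25- (open) over the same LN CD103-Klrg1- arrays; dotted lines mark the medians of all tested genes, 0.0130 and -0.14. Counts called in DEC CD25+ stand beside each list. Immediate early genes lie highest and interferon-induced genes lowest in converted cells.

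The largest shared differences were level between the DEC fractions. Bambi, a decoy receptor that blocks TGF-beta signals, read 12.29, 12.85 and 12.69 in converted, 12.40 to 12.97 in CD25- and 5.96 and 5.71 in resident cells. It was at least 109-fold higher (6.77 ± 0.24, adjusted p = 4.81e-12), with -0.01 ± 0.20 between the fractions. Ctla2a, a cysteine protease inhibitor, was at least 33.2-fold higher. Among the falls, Rab6b, a small GTPase of vesicle traffic, read 4.97, 4.51 and 4.66 in converted, 3.82 to 5.22 in CD25- and 10.49 and 9.64 in resident cells (at least 40.8-fold lower). Trim12a (at least 32.5-fold), a probe set annotated to Mir1931 (at least 28.8-fold), the interferon-inducible Ifi213 (28.5-fold) and the peptide transporter Slc15a2 (27.6-fold) followed. The calls of these 7 genes held under every alternative that tested them, but sizes rest on the brightest probe set: the mean of probe sets gave -2.81 for Rab6b, -2.93 for Trim12a and -1.44 for Slc15a2, against -5.35, -5.02 and -4.79.

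Trim12a lies among related genes that were lower together. On chromosome 7 the 6 tested neighbours Trim34a, Trim5, Trim12a, Trim12c, Trim30a and Trim30d, a family of ubiquitin ligases that includes restriction factors against retroviruses, were all shared falls, with log2 fold changes of -5.02 to -1.89 in converted and -5.01 to -2.79 in CD25- cells. Probe sets of near-identical family members may share signal. In all, 7 runs of at least 4 adjacent tested genes that were shared differences of 1 direction were found, each of them lower in the DEC fractions. Lower genes made up 1181 of the 1531 shared differences, and how many runs arise without any grouping was not tested. The restriction factor Apobec3 (-2.95 ± 0.26) lies in a run on chromosome 15. Zinc finger genes form 2 runs on chromosome 13, where 18.6% of tested genes were shared differences against 12.2% of all. The difference between the fractions ran from -0.72 to 1.18 over these runs.

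Transcripts of other cell types moved with the comparison. Of 21 myeloid and dendritic markers tested, 5 were called higher and 0 lower in converted cells, with a median of 1.34 against 0.0130 for all genes. In CD25- cells limma called 0, with 3 at an unadjusted p under 0.05. Higher calls made up 4.66% of all tested genes in converted and 3.95% in CD25- cells. The summed intensity of all 23 listed markers on the array ran from 4027 to 9427 on the converted arrays. It ran from 2282 to 4615 on the CD25- arrays and from 2229 to 2605 on the resident arrays. C1qb, a complement gene of macrophages, read 7.18, 9.43 and 10.58 in converted, 5.17 to 8.14 in CD25- and 4.98 and 5.24 in resident cells (at least 15.5-fold higher, adjusted p = 0.0136). DEC CD25+ replicate 1 was the lowest converted array. C1qa (at least 3.10-fold), Cybb (1.72 ± 0.46), Csf1r (2.70 ± 0.81) and Cst3 (1.68 ± 0.53) were the others, and the dendritic cell genes Flt3 (-0.14), Itgax (0.10) and Zbtb46 (0.16) were not called. Genes of splenic macrophages outside the list, Vcam1 (at least 16.7-fold), Slc40a1 (at least 12.6-fold), Cd163 (at least 7.17-fold) and Fcna (2.30 ± 0.46), were higher as well. Of these, Vcam1 (2.12 ± 0.71, adjusted p = 0.0396), Slc40a1 (2.24 ± 0.70, adjusted p = 0.028) and Cd163 (1.96 ± 0.58, adjusted p = 0.0196) were also called higher in CD25- than in resident cells, and Fcna was not (1.06 ± 0.44, adjusted p = 0.0956). The mean of probe sets gave 1.61 for Vcam1 and 1.98 for Slc40a1 in converted cells. Of the 23 listed markers on the array, those with a group mean below the filter numbered 3 in converted, 7 in CD25- and 11 in resident cells. The count of 5 became 12 without DEC CD25+ replicate 1, 1 without replicate 2, 2 without replicate 3, 10 with the replicate number of the DEC arrays as a block, 13 without both DEC replicate 1 arrays and 0 without either resident array. Among converted arrays, replicate 1 was lowest for C1qb, Vcam1, Slc40a1 and Fcna, but not for Cd163 (6.34, against 6.62 and 6.18). Replicate 1 was also lowest for Itgae (8.57, against 10.74 and 10.42) and Gzmb (7.0, against 7.90 and 8.15). It was not lowest for Il10 (10.998, against 10.994 and 10.47). Whether RNA of such cells enters the rises of other genes, Itgae, Gzmb and Il10 included, was not tested.

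B cell markers went the other way: 0 of 13 tested rose and 4 fell in converted cells, and 0 and 9 in CD25- cells. Lower calls made up 9.98% and 18.7% of all tested genes in these comparisons. The summed intensity of the 16 B cell markers on the array was 2950 to 3798 on converted, 2237 to 2551 on CD25- and 5575 to 6443 on resident arrays. Ms4a1 (CD20) read 7.75, 7.96 and 7.67 against 9.61 and 9.65 (-1.84 ± 0.35, adjusted p = 0.00159). Pou2af1, a B cell coactivator (-2.13), Cr2 (-0.79) and Fcer2a (-0.98) were the others. The calls of Cr2 and Fcer2a were lost without either resident array, which left 2, and that of Fcer2a without DEC CD25+ replicate 2 (-0.88); without both DEC replicate 1 arrays 5 were called. The genes Ighm (-0.90, adjusted p = 0.217) and Pax5 (0.11, adjusted p = 0.723) were not called. Of granulocyte and erythroid markers 0 of 9 and 0 of 4 were called by limma, with 0 at an unadjusted p under 0.05, of 9 CD8 T and NK cell markers Klrd1 alone fell (at least 5.13-fold; lost without DEC CD25+ replicate 3, at -2.35, LN CD103-Klrg1- replicate 2, at -1.83, or both DEC replicate 1 arrays, at -2.27), and of 5 plasma cell markers Xbp1 alone rose. Of sex chromosome genes Xist was 71.0-fold higher, Kdm6a rose by 1.12 ± 0.32 (not called without LN CD103-Klrg1- replicate 1, at 0.71, or DEC CD25+ replicate 2, at 1.03, or 3, at 1.15) and the Y-linked Kdm5d was at least 15.2-fold lower (-1.51 with the mean of probe sets). What these markers contribute to other differences was not tested.

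**Figure D5:**
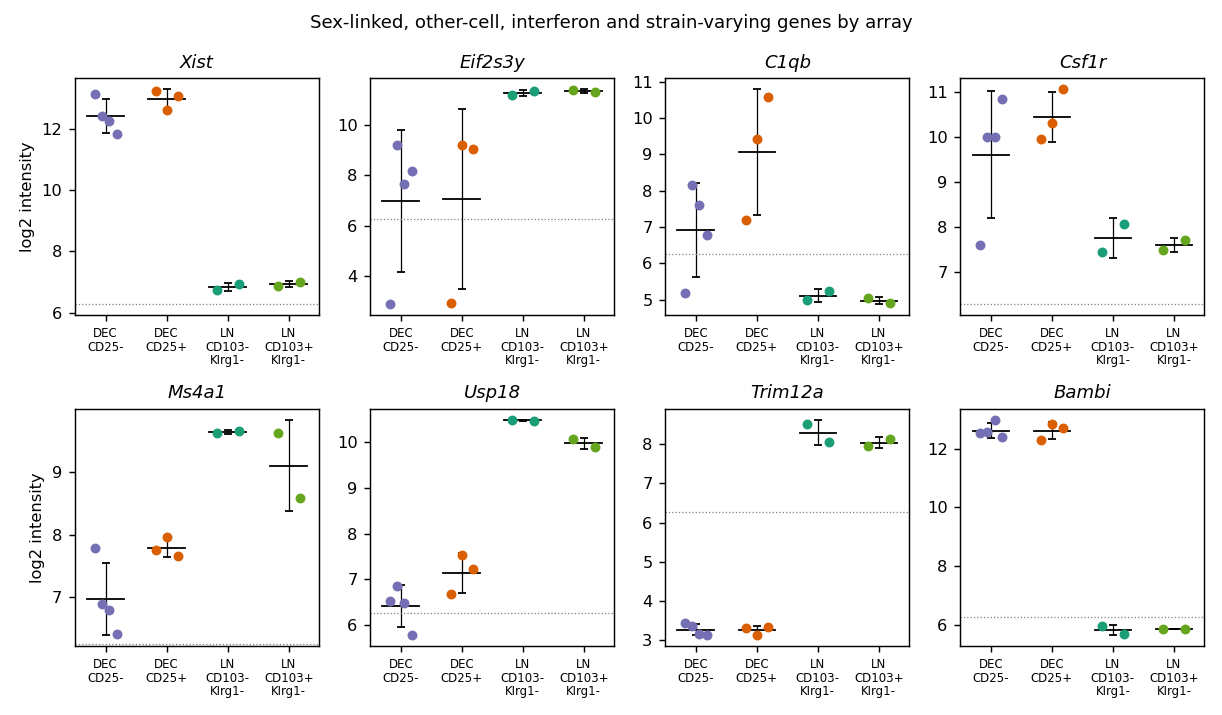
Log2 intensity (vertical axis) of genes that differ between the DEC and resident systems, by array, with group means, standard deviations and the filter at 6.27 as a dotted line. Xist and Bambi are high and Usp18 and Trim12a low on all 7 DEC arrays, Eif2s3y is near the floor on the first array of each DEC fraction, C1qb is lowest on the first array of each DEC fraction, and Ms4a1 is highest on resident arrays.

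Set against the CD103+Klrg1- subset in place of the CD103-Klrg1- one, 2243 genes were called in converted cells (17.9%), 734 higher (5.86%) and 1509 lower (12.1%). Among the differences named above, Bambi stood at 6.73 ± 0.24, Rab6b at -5.22 ± 0.35, Hopx at -3.26 ± 0.28, Gpr83 at -1.52 ± 0.32 and Itgb8 at -3.61 ± 0.44. Phlpp1 remained higher (0.91 ± 0.17, adjusted p = 0.00129), Inpp4b too (2.60 ± 0.51, adjusted p = 0.00173), and Sema4a was no longer called (-1.08 ± 0.38, adjusted p = 0.0589). Fgl2, a suppressor mediator, separated the references: converted cells differed by -3.92 ± 0.37 from CD103+Klrg1- cells (adjusted p = 1.43e-06) and by -1.12 ± 0.37 from CD103-Klrg1- cells (adjusted p = 0.0524).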

How the data were processed

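RNA of sorted cells, isolated with Trizol and amplified with the MessageAmp kit per the labels' protocols, was read on 23 arrays in 9 groups. The authors deposited 1 intensity per probe set on a linear scale, made with the RMA algorithm in GenePattern per the series text; its version is not given in the sources used here. From the deposited intensities log2 was taken with no pseudocount. Of 45101 probe sets, 34945 had 1 gene symbol in the platform annotation, giving 18193 genes; of several probe sets the one with the highest mean stood for a gene (9010 genes). The filter kept the 12516 genes with any of the 9 group means above 77.0 intensity units (6.27 in log2), the median of the whole table.

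R 4.3.3 and limma 3.58.1 (lmFit, eBayes) estimated a mean per group over all arrays, with 14 residual and 3.48 prior degrees of freedom. Tests were two-sided, with Benjamini-Hochberg adjustment over the genes that passed the filter. Python 3.11.15, numpy 2.4.6, pandas 2.3.3 and matplotlib 3.10.9 served for tables and plots. Tested on simulated data of the converted against resident comparison over 12516 genes, the fit recovered 41% of changes of 1 on the log2 scale. It recovered 89% of changes of 2, with 5.80% false among its calls. In these data 100 genes changed by each size, and a gene had the same spread in all groups. The real comparison called 14.6% of genes and its arrays were less even, so these figures need not carry over to it. Precision is limited by how few arrays there are.

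Named genes were the markers, the sort genes, the 10 largest rises and falls in the set of 149, the 5 largest shared rises and falls, and up to 5 called members of each list with the smallest p, or up to 2 where none was called. The members and lists were chosen with earlier results of these data known. Alternatives were quantile and cyclic loess normalization, other filters, the mean of probe sets, array weights, a fit to 9 arrays, replicate blocks, the other resident reference and leaving arrays out. Residuals of same-number DEC CD25+ and CD25- arrays correlated at 0.39, 0.51 and 0.38 across genes, and those of DEC CD25+ and resident arrays at -0.43 and -0.34. The numbers were therefore read as pairs among the DEC arrays only, which the labels do not settle.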

Additional observations from a re-analysis of the deposited data

Results flagged for a closer look

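Single arrays stood apart from the rest of their group among the named genes, all of them in DEC CD25-, the 1 group of the comparison with enough arrays for this criterion (the gap to the nearest array, as a share of the group's range). Chance alone would flag about 1 in 20 groups. Replicate 1 was lowest for Foxp3 (6.92, with the other arrays at 8.23 to 8.48) and Kdm5d (3.59, others 6.03 to 6.36), and highest for Dyrk2 (10.74, others 10.17 to 10.25) and Klf4 (10.74, others 9.48 to 9.61). Replicate 3, a dim array, was lowest for Rrad (6.46, others 8.34 to 8.42), Ier2 (8.19, others 10.75 to 10.97), Slfn2 (8.95, others 10.36 to 10.44) and Kdm6a (9.01, others 9.94 to 10.13), and highest for Il18r1 (11.31, others 10.35 to 10.51). Replicate 4, the other dim array, was lowest for Dennd4c (7.23, others 8.63 to 8.84).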

How the results depend on the processing

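The resident arrays set most of the limits, since only 2 were available. The count of genes called between converted and resident cells ran from 809 to 2409 with 1 array left out, lowest without LN CD103-Klrg1- replicate 2 (809) and replicate 1 (984). It was 4828 with array weights, 810 in the fit to 9 arrays, 3050 without both dim CD25- arrays and 2869 with the replicate block over the DEC arrays (added after the data were seen). For CD25- against resident cells the count was 1399 with 9 arrays and 1440 to 3236 with 1 left out (1440 and 1488 without LN CD103-Klrg1- replicates 1 and 2). Shared differences numbered 2675 with array weights, 700 with 9 arrays and 700 to 1874 with 1 left out (810 and 700 without LN CD103-Klrg1- replicates 1 and 2). The median of all genes was -0.11 with the filter at the upper quartile, 0.0363 with the mean of probe sets, 0.0491 with no filter, 0.0573 with the replicate block and -0.00911 to 0.0155 with 1 array left out. Without both DEC replicate 1 arrays (also added) 2013 genes were called. Against LN CD103+Klrg1- the sign turned for Itgae (-2.89), Foxp3 (-0.36), Klrg1 (-0.0673), Gzmb (-1.29), Il18r1 (-0.0237) and Cxcr3 (-0.49), with the mean of probe sets for Rnf157 (0.0892) and Cflar (-0.20), and without LN CD103-Klrg1- replicate 2 for Foxp3 (-0.16, against 0.39 without LN CD103-Klrg1- replicate 1). The cause was not tested. With the replicate number as a block over all 3 groups 2242 genes were called and 1620 were shared differences, and 101 of 105 named genes kept their call. The block over the DEC arrays kept 104 of 105. Both blocks give number 4 a level of its own, so DEC CD25- replicate 4 drops out of them.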
